A study of Mus musculus with 4 samples.

Results

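Zinc transporters and metallothioneins were followed through 4 sorted populations of early blood development, as 10 genes that move or bind zinc. These were Slc39a8, Slc39a10, Slc39a6, Slc39a14, Slc39a1, Slc30a1, Slc30a10, Slc30a5, Mt1 and Mt2, out of 18194 genes with a symbol of their own on the array, and they were found by symbol with all of their 21 probe sets out of 45101. The genes were chosen by function and with earlier results of these same arrays in view, so that their signals and ratios are given as descriptions.

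Cells came from day 6 co-cultures of OP9 stroma with mouse ES cells of the Runx1(Venus/+) line, derived from CCE ES cells, in which a fluorescent Venus gene sits in one Runx1 allele and is driven by its proximal promoter P2. All populations are thus heterozygous for this allele and come from 1 ES cell line, and Venus stands in for Runx1 in the sort. Population 1 was sorted as Runx1-Venus negative, VE-cadherin positive and Flk1 positive. Population 2 was positive for Runx1-Venus and VE-cadherin and negative for CD41, population 3 was positive for all of these markers, and population 4 was positive for Runx1-Venus and CD41 and negative for VE-cadherin. With 1 array per population in the data used here, no replicate check, error or test between populations can be given. The paper also describes a second set of these populations on Agilent arrays, which was not used here. Of the transcripts behind the gates, Runx1 was at 55.3, 358, 1297 and 2440.2 and VE-cadherin (Cdh5) at 5683, 3946, 4849 and 40.9 in populations 1 to 4, low where the gate was negative. Flk1 (Kdr) was at 5866, 4496, 4835 and 906. CD41 (Itga2b) was at 667, 1135, 2418 and 1609.5, and thus above 100 in populations 1 and 2 as well, though lower than in populations 3 and 4.

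Zinc enters the cytosol through transporters of the ZIP family, encoded by Slc39 genes, and leaves it for the outside or for organelles through transporters of the ZnT family, encoded by Slc30 genes. Metallothioneins are small cysteine-rich proteins that bind zinc and copper in the cytosol. In the mouse, free zinc activates the transcription factor Mtf1, which binds metal response elements in the promoters of Mt1, Mt2 and Slc30a1. Developing red cells need zinc for carbonic anhydrase and for the haem enzyme encoded by Alad, while several ZIP proteins carry manganese or iron as well.

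The core of the metal response element was searched, as TGCACNC and TGCGCNC on both strands, in RefSeq windows of GRCm38.p6 that run from 250 bases before to 50 bases after each annotated start. Of the 10 genes, 8 matched a window, and 6 of their 10 windows held a core, where 25.7% of all 32851 windows of this length did. Mt1, Mt2 and Slc30a1, already known for such elements, are among the 8, so nothing is read from this share. Mt2 held 4 cores, a number reached by 0.517% of all windows, and Mt1 and Slc30a10 held 3, a number reached by 1.97%. The Slc30a10 count includes a pair of cores that overlap on opposite strands. Slc30a1 held 2 cores (7.11% of windows hold as many). In Slc39a8 1 of its 2 annotated starts had a core, in Slc30a5 the single window had 1, and the windows of Slc39a10 and Slc39a1 had 0. A match is a description of the letters and not a site in use. The cores of the genes with several are shown with 5 bases on each side, 5′ to 3′ on the strand that holds the core, with the core in capitals. Positions count the leftmost base of the core on the strand of the gene from the annotated start.
Mt1, position -23, chr8:94179061-94179077, strand +: cgctgTGCACACtggcg
Mt1, position 3, chr8:94179086-94179102, strand +: agctcTGCACTCcgccc
Mt1, position 21, chr8:94179104-94179120, strand +: aaaagTGCGCTCggctc
Mt2, position -223, chr8:94172390-94172406, strand +: gcctcTGCACCCggccc
Mt2, position -128, chr8:94172485-94172501, strand +: cccttTGCGCTCagctc
Mt2, position -50, chr8:94172563-94172579, strand -: gagccTGCACACgccct
Mt2, position 5, chr8:94172617-94172633, strand -: gggccTGCGCACgaccc
Slc30a1, position -43, chr1:191906733-191906749, strand -: tgcttTGCACTCggaac
Slc30a1, position 31, chr1:191906806-191906822, strand -: gcgacTGCGCTCggccc
Slc30a10, position -233, chr1:185454610-185454626, strand -: gggtgTGCGCACcgctg
Slc30a10, position -232, chr1:185454611-185454627, strand +: agcggTGCGCACaccca
Slc30a10, position -73, chr1:185454770-185454786, strand +: cccaaTGCGCCCctcct

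Where a gene had several probe sets, the brightest on average (log2 scale) stood for it. The deposited values are linear intensity signals, and signals of different probe sets do not compare the levels of different genes. By these probe sets, 7 of the 10 genes had a signal above 100 in all 4 populations and all 10 had one in at least 1 population. Of the 21 probe sets, 6 stayed below 100 throughout. Ratios were taken after signals below 100 had been raised to 100, and where 1 of the 2 signals was that low the fold is given as "at least".

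**Figure D1:**
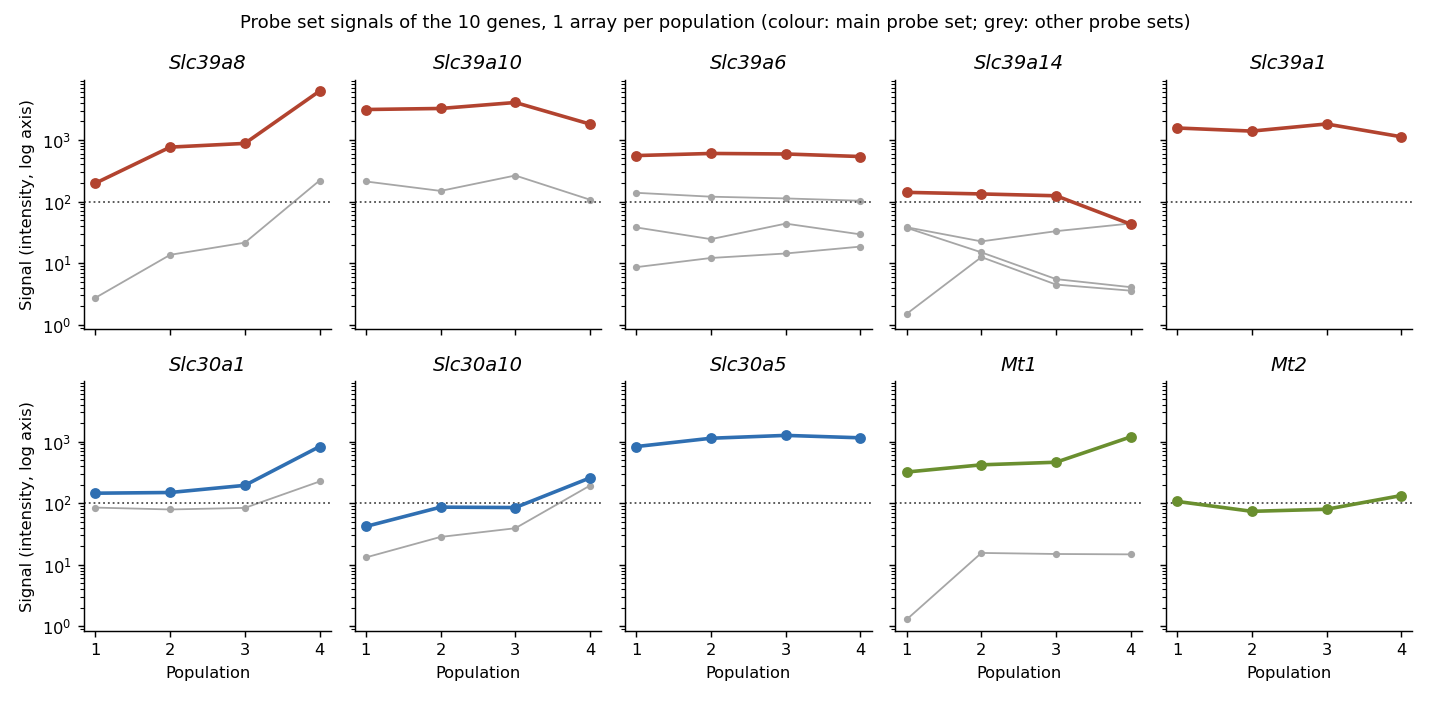
Signals of all 21 probe sets of the 10 genes (intensity, log axis) in populations 1 to 4, with 1 array per population and therefore no error bars. Coloured lines are the main probe set of each gene (red ZIP, blue ZnT, green metallothionein), grey lines its other probe sets, and the dotted line marks a signal of 100. Slc39a8 reaches 6209 in population 4, while Slc39a10 drops to 1806 there.

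Among the importers, Slc39a8 had the widest range of the 10 genes. It encodes a plasma membrane transporter of zinc and manganese, and its signals were 198, 764, 878 and 6209 in populations 1, 2, 3 and 4. They formed 3 levels, with populations 2 and 3 close together between the low population 1 and the high population 4. The signal was 3.85-fold higher in population 2 than in population 1, which placed the gene eighth from the top among the 9468 genes that passed 100 in some population. Between populations 3 and 2 it differed by a factor of 1.15, near the median of those genes on the log2 scale (0.20 against 0.22). Population 4 stood 7.07-fold above population 3. Its 31.3-fold excess over population 1 was exceeded by 5 of the 9468 genes. The second Slc39a8 probe set had signals of 2.73, 13.6, 21.5 and 219 in populations 1 to 4. It keeps the order of the populations, but its 3 lower signals lie below 100. The step between populations 2 and 1 therefore rests on 1 probe set, and with the mean over both probe sets its log2 ratio was 0.03 in place of 1.94, as that mean was below 100 in population 1 and just above it in population 2.

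The other importers did not share this profile. Slc39a10, a plasma membrane zinc importer known in the mouse for its role in B cells, had signals of 3116, 3238, 4053 and 1806 in populations 1 to 4. It was highest in population 3 and 2.24-fold lower in population 4 than in population 3, the opposite direction to Slc39a8 at that step. Scaled on the poly-A controls, this log2 ratio was -0.98, just within the 2-fold limit, in place of -1.17. Its second probe set, with 212, 149, 264 and 107, was likewise highest in population 3 and lowest in population 4. Against population 1, the log2 ratio of population 4 was -0.79, which lay between -1.09 and -0.45 over the deposited scale and 4 other scalings of the arrays and passed 2-fold in 2 of these.

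Slc39a6, whose protein pairs with that of Slc39a10, had signals of 557, 603, 591 and 537 in populations 1 to 4. Its highest and lowest signals differed by less than the 2-fold limit, and the sign of its log2 ratio of population 4 over population 1 (-0.05) turned with the scaling, between -0.35 and 0.28. Its second probe set was at 138, 119.7, 112 and 103, also within 2-fold, and the other 2 stayed below 100. Slc39a1, a plasma membrane zinc importer of many cell types, had 1562, 1390.2, 1814 and 1124. It was lowest in population 4 and 1.61-fold lower there than in population 3, within the limit. Slc39a14, a transporter of zinc, iron and manganese closely related to Slc39a8, had signals of 141, 133, 124 and 42.7. It was above 100 only in the VE-cadherin positive populations, and its population 4 signal lay below that of population 1 by a factor of at least 1.41. The other 3 probe sets of Slc39a14 stayed below 100, so that no ratio was taken from them.

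Among the exporters, Slc30a1 and Slc30a10 stood highest in population 4. Slc30a1 encodes the zinc exporter of the plasma membrane, and its signals were 146, 149, 195 and 832 in populations 1 to 4. The first 3 populations lay close together and population 4 was 4.26-fold higher than population 3 and 5.71-fold higher than population 1. The second Slc30a1 probe set was at 84.9, 79.3, 84.0 and 225, which gives the same division between population 4 and the others. Slc30a10, best known as a manganese exporter, had signals of 42.0, 86.4, 85.1 and 258, with its second probe set at 13.2, 28.4, 39.3 and 194. Both probe sets exceeded 100 only in population 4, which by the main probe set was at least 2.58-fold higher than population 1. With signals raised to 200 in place of 100, its ratio was within 2-fold, since a highest signal of 258 cannot lie 2-fold above that floor. Slc30a5, which loads zinc into the secretory pathway, had signals of 832, 1136, 1263 and 1154. It was lowest in population 1, and all of its ratios were under 2-fold.

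By their main probe sets, Mt1 was past 2-fold between populations 4 and 1 and Mt2 was not. Mt1 had signals of 321, 420.4, 463 and 1197 in populations 1 to 4, so that population 4 stood apart at 2.58-fold above population 3 and 3.73-fold above population 1. This profile comes from 1 probe set whose suffix (_s_at) marks possible binding of transcripts of more than 1 gene. The other Mt1 probe set was far below 100 in all populations, at 15.6, 15.0 and 14.8 in populations 2 to 4 and less in population 1. With the mean over both probe sets, the Mt1 signals of populations 4 and 1 were 133 and 20.4. Its log2 ratio was then at least 0.41, in place of 1.90. Without the _s_at probe set both signals lay below 100 and the ratio was 0. The floor of 100 thus kept both ratios within 2-fold, so these settings cannot check the difference. Mt2, the neighbour of Mt1 on the chromosome, had signals of 107, 73.9, 79.9 and 133 by its single probe set, close to 100 in all populations. The population 4 signal of Mt2 was 1.25-fold that of population 1. The log2 ratio of Mt2 between these populations was 0.32. That of Mt1 with the mean over probe sets is a lower bound, so the 2 genes are not compared.

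With a limit of 2-fold, 4 of the 10 genes (Slc39a8, Slc30a1, Mt1 and Slc30a10) stood higher in population 4 than in population 1 and 0 stood lower, where 22.4% and 12.9% of the 9468 genes did. The count higher was 3 with the mean over probe sets and without the _x_at and _s_at probe sets (Mt1 lost), and 3 with signals raised to 200 (Slc30a10 lost). In each of these settings the floor kept the lost gene within 2-fold. The step between populations 4 and 3 held the same 4 genes higher and Slc39a10 lower, beside 7.94% and 12.2% of all genes. Between populations 2 and 1, Slc39a8 alone was higher and 0 genes were lower (2.92% and 4.19% of all genes), and between populations 3 and 2 the counts were 0 and 0 (3.11% and 0.253%). Nothing is read from these counts, since the genes were chosen with the values of the arrays known. Between populations 4 and 1, the log2 ratios had a median of 0.39 over the 10 genes and 0.36 over all 9468. In population 4, 5 of the 10 genes had their highest signal and 4 their lowest, where 51.8% and 27.6% of all genes did.

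**Figure D2:**
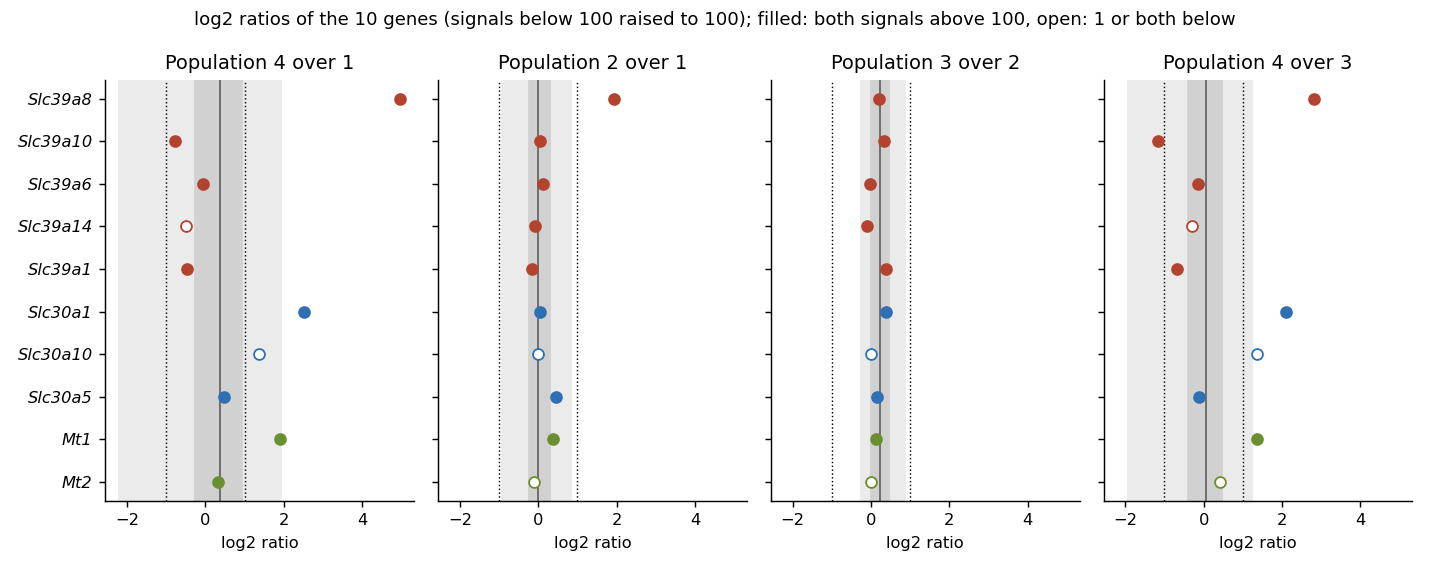
log2 ratios of the 10 genes for 4 pairs of populations, each from 1 array per population, with signals below 100 raised to 100. Light grey spans the 5th to 95th percentile of all 9468 genes, dark grey the 25th to 75th, the solid line is their median, and dotted lines mark 2-fold. In the comparison of populations 4 and 1, Slc39a8 lies at 4.97 and Slc30a1 at 2.51.

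The arrays carry scaling differences that touch small ratios. Over the 9468 genes, the log2 ratio of population 4 over population 1 ran from -2.19 at the 5th percentile to 1.93 at the 95th, and its median was 0.36 on the deposited scale, 0.10 after centring on the array median and 0.65 after scaling on the hybridisation controls. The genes past 2-fold were split into 2123 higher and 1223 lower as deposited, 1358 and 1504 after centring, 1429 and 1473 after quantile normalisation, 3312 and 980 on the hybridisation controls and 1904 and 1274 on the poly-A controls. The ratios of Slc39a8, Slc30a1, Mt1 and Slc30a10 between populations 4 and 1 stayed past 2-fold on the deposited scale and the other 4 scalings. That of Mt1 did not with other choices of probe set, nor that of Slc30a10 with signals raised to 200. In those settings the floor kept these ratios within 2-fold.

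Other members of both families were read from lists of all named ZIP and ZnT genes. Of 14 ZIP genes on the array, 10 had a signal above 100, and Slc39a8 was the single one past 2-fold upward between populations 4 and 1, with 0 past it downward on the deposited scale and 2 (Slc39a10 and Slc39a11) after centring. The median log2 ratio of the 10 was -0.43, beside 0.36 over all genes. Slc39a11 had the lowest ratio of the 10, with 182 in population 4 and 348 in population 1. Slc39a4, a zinc importer best known from the intestine, was at 115, 145, 249.7 and 66.0 over the 4 populations and lay lower in population 4 than in population 3 by a factor of at least 2.50. Of 10 ZnT genes, 8 had a signal above 100, with a median log2 ratio of 0.51, beside 0.36 over all genes. Slc30a1 and Slc30a10 were the 2 past 2-fold, both upward. Beside these counts of both families, 22.4% of all 9468 genes were past 2-fold upward between populations 4 and 1 and 12.9% downward. Slc30a9, a zinc exporter of mitochondria, had signals of 1472, 1360.0, 1600.3 and 1976, within 2-fold of each other. Slc30a4 had the lowest ratio of the 8, with 283 in population 4 and 464 in population 1.

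**Figure D3:**
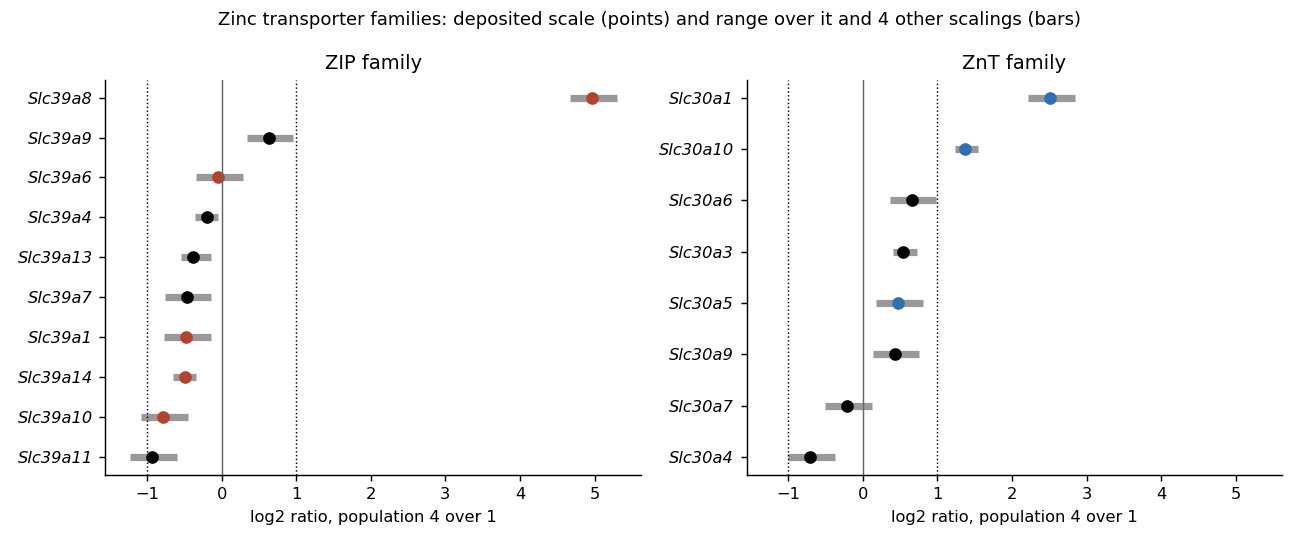
log2 ratio of population 4 over population 1 for the 10 ZIP and 8 ZnT genes that passed a signal of 100, from 1 array per population. Points give the deposited scale (coloured for the genes described here by name, black for the others), bars the range over it and 4 other scalings, and dotted lines 2-fold. Slc39a8 at 4.97 is separated from the next ZIP gene, Slc39a9, at 0.63.

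Genes that sense or use zinc were read in the same way. Mtf1, the metal-responsive transcription factor, was at 162, 231, 283 and 325 over the 4 populations, just past the limit at 2.01-fold between populations 4 and 1. Its log2 ratio was 1.00 as deposited and 1.34 on the hybridisation controls, but 0.71 after centring, 0.75 after quantile normalisation and 0.93 on the poly-A controls, within the limit. Of its 5 probe sets, 3 passed 100, and these were higher in population 4 than in population 1. Trpm7, a channel that passes zinc and magnesium, was within 2-fold with 2976 in population 4 and 1922 in population 1. Of 11 zinc enzymes and related genes that passed 100, 2 were past 2-fold upward between populations 4 and 1 and 4 downward. Over all 9468 genes, the shares were 22.4% upward and 12.9% downward. Alad, the zinc-dependent enzyme of haem synthesis, was at 244, 306, 293 and 2673, and thus 9.13-fold higher in population 4 than in population 3. Carbonic anhydrase 2 (Car2), the zinc enzyme of red cells, had signals of 1221, 4722, 5511 and 9870.3. Like Slc39a8, it was higher in population 2 than in population 1 (3.87-fold) and within 2-fold between populations 3 and 2.

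Of the genes past 2-fold downward, 3 encode proteases that act at the cell surface or in the matrix. Endothelin-converting enzyme (Ece1) was at 225 in population 4, against 1814 in population 1 (8.07-fold lower). The matrix metalloproteinase gene Mmp14 was at 178 in population 4, against 1458 (8.19-fold lower), and Mmp2 at 51.2, against 1013 (at least 10.1-fold lower). Car8, a relative of carbonic anhydrase without its activity, was highest in population 3, with 662, 1689, 2515 and 256 in populations 1 to 4. Its other 2 probe sets stayed below 100.

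**Figure D4:**
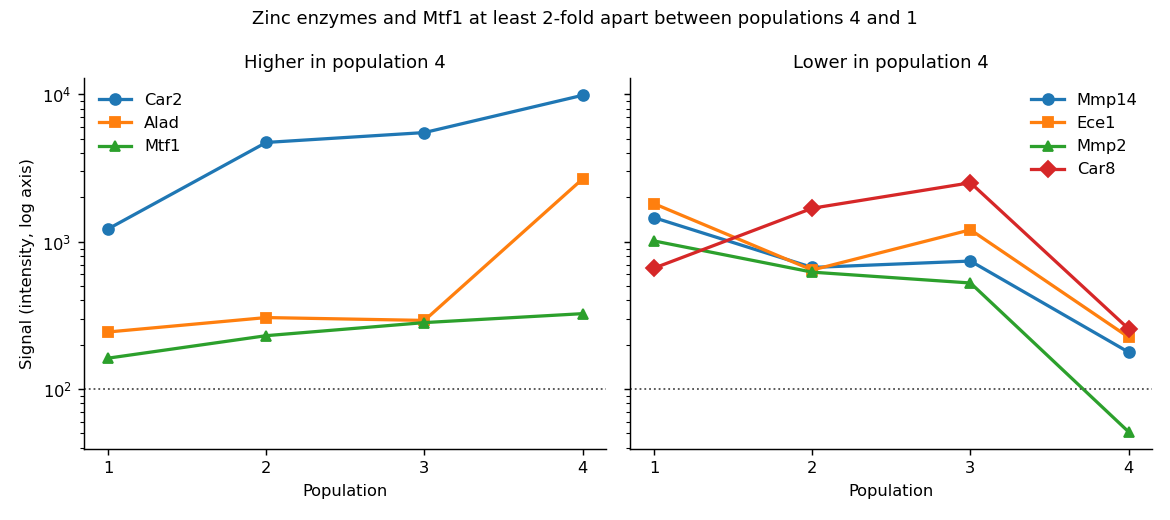
Signals (intensity, log axis) of zinc enzymes, the related gene Car8 and Mtf1 at least 2-fold apart between populations 4 and 1 on the deposited scale (Mtf1 not after centring, quantile normalisation or poly-A scaling), by their main probe sets, with 1 array per population and no error bars. The dotted line marks a signal of 100. Alad reaches 2673 in population 4, against 293 in population 3, while Car2 is at 4722 already in population 2.

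The genes nearest in profile to Slc39a8 were sought among 6054 genes that reached a signal of 400 in some population, by the root mean square difference of log2 signals after their mean over the 4 populations was subtracted. The nearest was Aqp8, a water channel gene, with a difference of 0.28 and signals of 23.5, 69.1, 136 and 786 in populations 1 to 4. It was followed by 5430401H09Rik (0.32), the junction protein gene Ajap1 (0.34), the myelin basic protein gene Mbp (0.36) and Ticrr (0.36), which acts in the initiation of DNA replication. All 5 were below 100 in population 1, all but Ticrr were below it in population 2, and 5430401H09Rik was below it in population 3 as well (98.7), so that their ratios of population 2 over population 1 rest in whole or in part on signals under the floor used elsewhere. The nearest to Mt1 were Azin1 (0.04), Pex2 (0.04), Smim26 (0.06), Nomo1 (0.06) and Rabgef1 (0.07). These differences run over 4 arrays and describe the shape of a profile only.

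**Figure D5:**
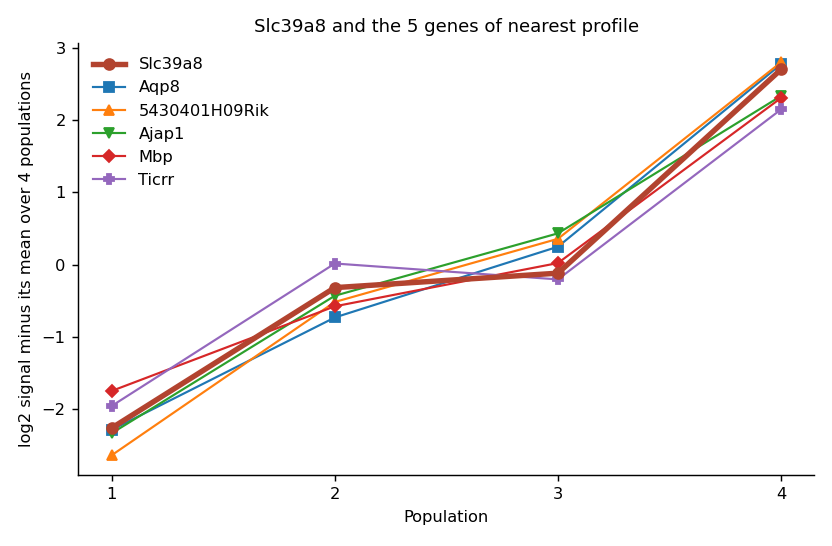
log2 signal of Slc39a8 and of the 5 genes nearest to it, each minus its mean over the 4 populations, with 1 array per population. The 5 genes were picked for this shape and reach a signal of 400 in population 4 alone, so their peak there follows from the choice. Slc39a8 differs by 0.20 between populations 3 and 2.

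Markers of other cell types also differed between the populations. Over 5 erythroid markers, the summed signal was 222, 314, 4334 and 32318 in populations 1 to 4, and over 6 endothelial markers it was 20690.2, 13445, 15721 and 1537. The erythroid transcription factor gene Klf1 was below 100 in populations 1 to 3 and at 2538 in population 4. Embryonic globin Hbb-bh1 was at 3568 in population 3 and 151 in population 2. Of the 5 erythroid markers, 2 (Hbb-bh1 and Hba-x) were past 2-fold upward between these populations. The other 3 (Gata1, Klf1 and Epor) were within the limit there, with Gata1 and Klf1 below 100 in both. Slc39a8, with a factor of 1.15, was within it too. From population 3 to population 4, all 5 markers and Slc39a8 were past 2-fold upward. Between populations 2 and 1, Slc39a8 was 3.85-fold higher by its main probe set, while 0 of the 5 markers were past 2-fold. All of these markers but Hbb-bh1 were below 100 in both populations. The summed signal of 4 megakaryocytic markers was 744, 1203, 2612 and 2648. Most of it came from the sort marker Itga2b, which was lower in population 4 than in population 3, while the other 3 were higher there, such as Gp1bb (516 against 38.2) and Pf4 (343 against 124). The summed signal of 5 myeloid markers was 125, 149.8, 716 and 934. Of these, Csf1r (388 against 222) and Ptprc (221 against 47.1) were higher in population 4 than in population 3, and the other 3 were lower, such as Mpo (158 against 222). The summed signal of 7 markers of stroma such as the OP9 cells was lowest in population 4, with 3149, 1889, 1687 and 1419. All 6 markers of visceral endoderm and liver, tissues rich in metallothionein, were at or below 59.4, and all 5 markers of undifferentiated ES cells at or below 70.7. In sorted populations, a larger share of cells with a transcript and more transcript per cell cannot be told apart, and the part of the markers in the zinc gene profiles was not tested.

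Other conditions under which metallothionein genes are known to respond were described by lists of their own. Of 9 oxidative and metal stress genes that passed 100, 1 was past 2-fold upward between populations 4 and 1, the glutathione synthesis gene Gclm (3168 against 621), and 1 downward, the haem oxygenase gene Hmox1 (115 against 261). Among 7 glucocorticoid response genes, 1 was higher and 3 were lower, with Sgk1 at 375 in population 4 and 4194 in population 1. Of 8 hypoxia response genes, 0 were past 2-fold upward and 2 downward, Vegfa (166 against 538) and Ddit4 (143 against 592). The other 6, such as Slc2a1, the brightest of the list (7396 against 9476), were within 2-fold. Over all 9468 genes, the shares past 2-fold between populations 4 and 1 were 22.4% upward and 12.9% downward. Nothing is read from the counts of these short lists.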

How the data were processed

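RNA of 4 sorted populations was hybridised to Affymetrix mouse genome arrays, with 1 array each. The values deposited by the authors are linear intensity signals per probe set, made with MAS5 and GCOS 1.3 by the submitters' processing notes. The scaling target and detection calls are not given in the sources used here, and the number of arrays limits the precision. Probe sets with 1 gene symbol in the array annotation (34958) were kept, and those with several (932) or with no symbol listed (9211, controls included) were left out. For each of 18194 genes the probe set brightest on average over the arrays was used (log2 scale, signals below 1 set to 1). The 9468 genes that passed 100 in some population entered the counts, and signals below 100 were raised to 100 before a ratio. Symbols and promoter windows came from RefSeq tables of GRCm38.p6.

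No test was made, for want of replicates. The genes and lists were chosen with earlier results of these arrays known. All 10 genes are named, with other genes of the zinc lists that passed 2-fold in a pair of populations or were the brightest of their list, the sort markers, the 5 nearest profiles to Slc39a8 and to Mt1 and up to 3 of the brightest genes of each marker or stress list. Slc39a9, Slc39a11, Slc30a4, Hmox1, Vegfa and Ddit4 were singled out after their values were seen. The alternatives were averaging a gene's probe sets, omitting those of suffix _x_at or _s_at, centring, quantile normalisation, scaling on hybridisation or poly-A controls, floors of 50 and 200, and a minimum of 200 or none. A ratio was taken as moved if it differed by over 1.5-fold. The steps were tested on simulated data. Python 3.11.15, pandas 2.3.3, numpy 2.4.6 and matplotlib 3.10.9 were used.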

Additional observations from a re-analysis of the deposited data

How the results depend on the processing

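Under the alternatives, 12 ratios of the 10 genes moved by over 1.5-fold and 308 did not, and none past 2-fold changed sign. Many of the 308 could not move, such as those of genes with 1 probe set under averaging. The same holds for genes whose main probe set has neither suffix when such probe sets were omitted. The tally is therefore no measure of stability. The count past 2-fold upward between populations 4 and 1, and between populations 4 and 3, was 4, and became 3 with the mean over probe sets, without _x_at and _s_at probe sets and with a floor of 200. The count of genes past 2-fold downward between populations 4 and 1, which was 0, became 1 after centring on the array median, after quantile normalisation and with signals raised to 50. In the ZIP family this count, also 0, became 2 after centring and after quantile normalisation, and 1 on the poly-A controls and with signals raised to 50. In the ZnT family it became 1 after centring, and with signals raised to 200 the count higher was 1 in place of 2. At the step between populations 4 and 3, the 1 gene lower became 0 on the poly-A controls and 2 with signals raised to 50. With the mean over probe sets, 0 genes were past 2-fold upward between populations 2 and 1, as the floor kept Slc39a8 within the limit there. On the hybridisation controls, 2 genes in place of 4 were lowest in population 4. The log2 ratio of Mt1 between populations 4 and 1, 1.90 as deposited, was at least 0.41 with the mean over probe sets. It was 0 without the _s_at probe set, whose replacement lies at background. The floor of 100 kept both of these ratios within 2-fold. With the mean over probe sets, the log2 ratio of Slc39a8 was at least 3.54, as its mean in population 1, 23.3, was raised to 100. That of Slc30a10 was at least 2.37 with a floor of 50 and at least 0.37 with a floor of 200. Of the 5 genes nearest to Slc39a8, 4 were shared after quantile normalisation and 2 on linear signals. Signals near or below 100, as for Mt2, Slc39a14 and Slc30a10, limit what the ratios show. No paired analysis was possible because each population has 1 array.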
